A study of Rattus norvegicus with 11 samples.

Results

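Msh3 (ENSRNOG00000013673), which encodes a DNA mismatch repair protein, was followed in the corpora quadrigemina of 11 rats, the midbrain plate that comprises the superior and the inferior colliculi. It was 1 of the 32883 genes counted in each library. It was singled out because its level was low in KM rats, so its own levels and fold changes are given as a description, without a test. The groups were 3 KM rats, a line bred from Wistar stock for seizures in response to sound, 4 “0” rats and 4 W rats. The “0” strain is selected for the absence of such seizures and goes back to KM × Wistar hybrids. W rats are the Wistar controls. All were 4-month-old males whose last exposure to sound was 4 days before the tissue was taken. Only W and “0” animals without audiogenic seizures were used, while the KM rats had convulsed in the sound test, and “0” rats had been tested with sound 3 times at an earlier age, when KM rats were tested once. The GEO labels give the background of all 3 groups as Wistar, and separate breeding, the history of sound tests and seizures, and seizure proneness cannot be told apart in this design.

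The Msh3 protein is part of the MutSβ complex, which recognises small loops left by insertions and deletions in newly copied DNA. The related MutSα complex, which contains Msh6 in its place, recognises base mismatches and the smallest loops. Both complexes recruit MutL proteins, after which the strand is cut back and resynthesised. MutSβ is also known as a driver of the expansion of trinucleotide repeats in brain.

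In the RefSeq gene table (assembly GRCr8), Msh3 lies on chromosome 2 and is transcribed from the minus strand. No other gene of the table overlaps Msh3. The counts were made on another assembly, Rnor_6.0, and no coordinate was carried over.

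The promoter of Msh3 is shown because the gene is followed at the level of its mRNA. The RefSeq window (GRCr8) from 250 bases before to 50 bases after the Msh3 start holds 3 GC boxes, searched as GGGCGG on both strands. All lie upstream of the start. Of the 33469 promoter windows in the table, 33.1% hold at least 1 GC box and 8.97% hold at least 3. The 27 bases around each are shown on the minus strand with the motif, read there as CCGCCC, in capitals, since they show how alike the flanks are. The stretch around GC box 1 begins at base -218 from the Msh3 start (chr2:25321049-25321075), that around GC box 2 at base -172 (chr2:25321003-25321029) and that around GC box 3 at base -125 (chr2:25320956-25320982).
GC box 1: cagctaaggccCCGCCCtccaaggccc
GC box 2: cagctaaggccCCGCCCccacaaggcc
GC box 3: tagcgaaggccCCGCCCccatcaggcc

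An 18-base run around the GC boxes nearest the 5′ end of the window occurs in 2 copies, 46 bases apart. The window holds neither a CCAAT box (CCAAT, found in 37.5% of windows) nor a TATA box (TATAAA, found in 14.2%), searched on both strands. Of its bases 67.7% are G or C, against a median of 51.7% over all windows. These are letters of the reference genome, and the sequence of KM rats was not analysed here.

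The libraries held between 10545964 and 15140180 reads assigned to genes, with a median of 11861682. In “0” 3 the 10 genes with most counts took 29.2% of the reads, against 7.94% to 19.0% in the other rats. Counts of any pair of rats within a strain differed beyond sampling noise (chi-square divided by its degrees of freedom, 18.6 to 211). Of 5 markers fixed for the tectum, only Pou4f1 could be matched to an identifier. Levels are given in CPM (counts per 1000000 reads assigned to genes). Pou4f1 stood at 0.0852 to 1.32 CPM in KM, 0.231 to 2.35 CPM in “0” and 0.777 to 2.84 CPM in W rats. Its means were 0.526, 1.45 and 1.78 CPM in that order, on 1 to 36 reads per rat, and the ranges overlapped. Its part in the Msh3 level was not tested. None of 6 neuronal markers could be matched, so the labelled tissue was not checked further.

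Msh3 mRNA was low in every KM rat and near 10 CPM in every other rat. In KM rats 1, 2 and 3 the gene received 35, 20 and 13 reads, which is 2.98, 1.73 and 0.859 CPM. In W rats 1 to 4 it received 125, 134, 103 and 124 reads, or 10.1, 10.6, 8.68 and 10.7 CPM. In “0” rats 1 to 4 the reads numbered 154, 116, 100 and 132, or 11.9, 11, 8.97 and 9.69 CPM. The highest KM value was 34.4% of the lowest value in any other rat, so KM rats overlapped with neither strain, whereas the W and “0” values were interleaved. With values this low, a count of 3 reads, taken as the smallest detectable amount, corresponded to 0.198 to 0.284 CPM depending on the rat, and all KM counts lay above it.

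**Figure D1:**
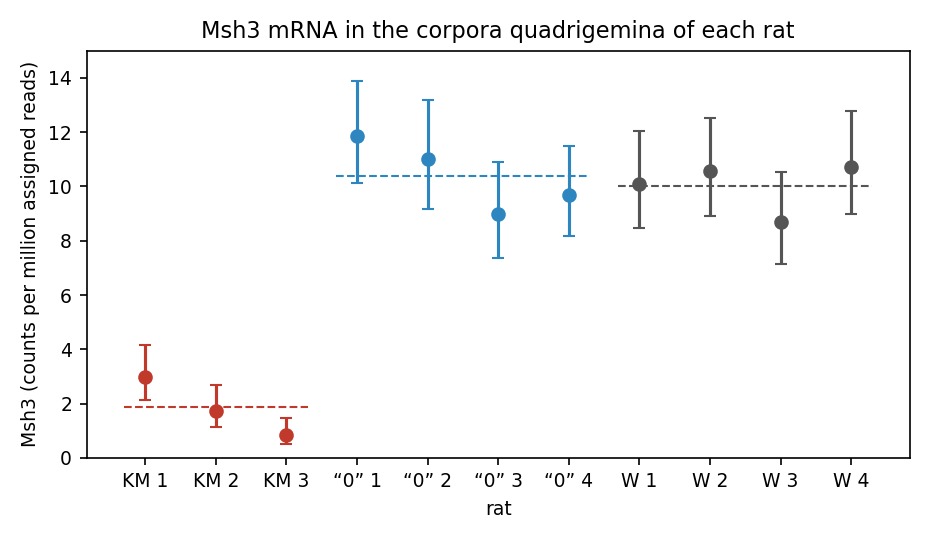
Msh3 level in each of the 11 rats, in CPM (counts per 1000000 assigned reads), with 95% Wilson intervals that cover counting error only; dashed lines mark strain means. The 3 KM rats lie at 0.859 to 2.98 CPM and the 8 other rats at 8.68 to 11.9 CPM.

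KM rats averaged 1.86 ± 1.07 CPM (SD, n = 3), W rats 10.02 ± 0.925 CPM (SD, n = 4) and “0” rats 10.4 ± 1.29 CPM (SD, n = 4). In order of level the strains thus stood KM, W, “0”, and the last 2 differed by less than the spread between rats. The W mean was 5.39 times the KM mean, and the “0” mean was 5.59 times the KM mean. The fitted log2-fold change (edgeR, TMM scaling) was -2.54 (standard error 0.39) for KM vs W and -2.60 (standard error 0.40) for KM vs “0”, both sharing the same KM rats. In “0” vs W rats it was 0.06 (standard error 0.17), with a 95% interval from -0.35 to 0.48. In a bulk sample, fewer cells that express the gene and less mRNA per cell cannot be told apart.

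Non-overlap of the strains, which the choice of Msh3 used, was found in 12.3% of the genes tested for KM vs W, 4.71% for KM vs “0” and 3.82% for “0” vs W. Of the 13721 genes tested for KM vs W, 12 had a lower log2-fold change than Msh3. Of the 13686 tested for KM vs “0”, 4 did. Over all genes the median log2-fold change was 0.01 in both comparisons. Relative to other genes of the same library, Msh3 had more counts than 1.26% to 11.5% of the expressed genes in KM rats and more than 30.1% to 37.5% in W and “0” rats.

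**Figure D2:**
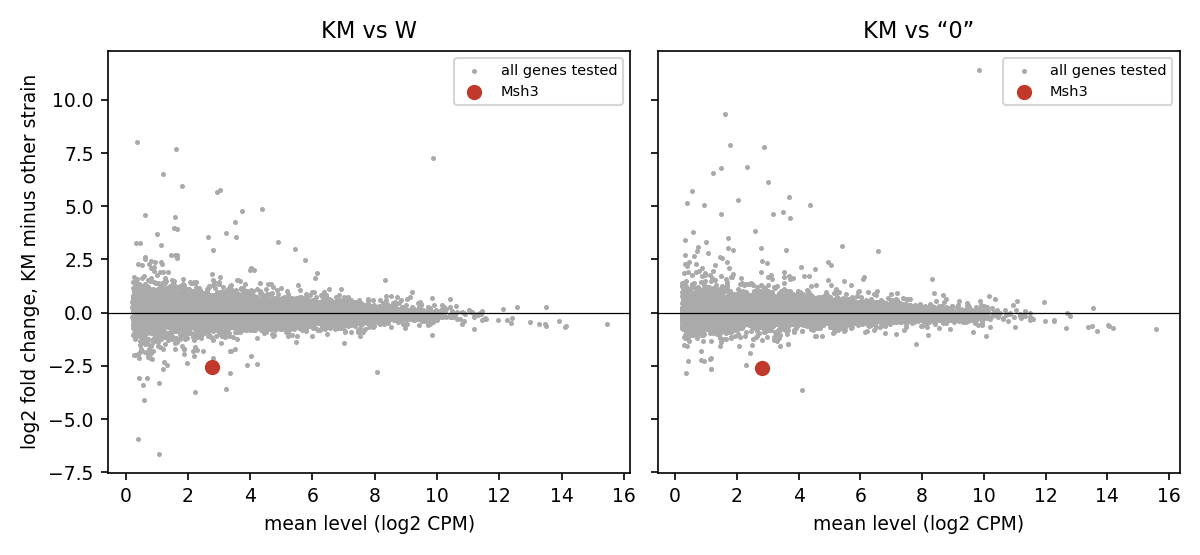
Log2-fold change (KM minus the other strain, vertical) against mean level (log2 CPM, horizontal) for all genes tested for KM vs W and KM vs “0”, with Msh3 in red. Msh3 lies at -2.54 and -2.60, below nearly all genes of similar level.

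A log2-fold change under -2 in both KM vs W and KM vs “0” was found for 4 of the 13492 genes tested in all comparisons. They were Msh3, Htra4, Sspo and Acsm5, named here after their values were seen. Htra4, a secreted serine protease, had means of 0.557 CPM in KM, 2.42 CPM in W and 2.45 CPM in “0” rats. Only for Msh3 and Htra4 was every KM rat below all 8 other rats. Sspo, which encodes the SCO-spondin secreted by the subcommissural organ, had means of 0.576, 7.45 and 3.05 CPM in KM, W and “0” rats. Acsm5, an acyl-CoA synthetase of fatty acid metabolism, had 2.40, 9.90 and 28.0 CPM.

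Relative to their mean, the KM rats differed among themselves more than the other rats did, with a coefficient of variation of 57.5% against 9.24% in W and 12.4% in “0” rats, although in CPM the SD was of similar size in all strains. At 13 to 35 reads, counting error is also a larger share of a KM value. The 95% Wilson interval of KM 1 (2.15 to 4.15 CPM) did not overlap that of KM 3 (0.502 to 1.47 CPM), while the intervals of the 4 W rats all overlapped, as did those of the 4 “0” rats. On the log2 scale the SD of Msh3 was 0.86 in KM, 0.16 in W and 0.21 in “0” rats. Among the 1830 genes with a KM mean between 0.5 and 2 times that of Msh3, 87.5% had a smaller SD. The corresponding shares were 22.9% in W and 24.7% in “0” rats.

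KM 3, which had the lowest Msh3 level, stood apart in markers of the choroid plexus, the epithelium that makes cerebrospinal fluid. The summed level of the 5 markers Ttr, Kcne2, Folr1, Clic6 and Kl was 7709 CPM in KM 3, against 27.8 CPM in KM 1, 65.8 CPM in KM 2 and 11.8 to 63.8 CPM in W and “0” rats. Without KM 3 the log2-fold change of Msh3 was -2.14 for KM vs W and -2.20 for KM vs “0”. The part of these markers in the Msh3 level was otherwise not tested. The 2 astrocyte markers that could be matched went in opposite directions. Gfap, an intermediate filament protein, stood at 1458 to 2198 CPM in KM, 1272 to 2608 CPM in “0” and 994 to 1235 CPM in W rats, while Aldh1l1, a folate enzyme, stood at 53.9 to 66.8 CPM in KM, 61.8 to 112 CPM in “0” and 68.5 to 85.2 CPM in W rats. Their summed level was 1524 to 2252 CPM in KM, 1341 to 2720 CPM in “0” and 1063 to 1310 CPM in W rats, and its part in the Msh3 level was not tested.

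The compensation coefficient of the study, the KM minus “0” difference in mean log2 CPM as a percentage of the KM minus W difference, was 103% for Msh3. A value of 100% means that “0” rats stand at the W level. Taking each “0” rat singly, it was 110% for “0” 1, 105% for “0” 2 and “0” 3, and 90.8% for “0” 4. It lay between 100.01% and 106% when any single rat of the 11 was omitted. The KM mean enters both differences.

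Of the partners of Msh3, hardly any could be followed. Identifiers could be matched to symbols for 1763 genes, nearly all of them genes that the study lists as differing between strains in these same libraries. Of 29 other genes written down for mismatch repair, only Rfc1 and Fan1 were among them. Msh6, Msh4, Msh5, Pms2, Pms1 and Mlh3 were not, and no value is given for them. The same holds for all 5 genes listed because the study names their products beside MutSβ (Mt-co2, Atp5f1b, Sod1, Sod2 and Sod3). The matched genes were thus picked on these samples, and their counts are no independent evidence of a direction.

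Both genes of the mismatch repair list that could be followed had a higher level in KM rats than in W rats. Neither is a MutS or MutL gene, and their direction was opposite to that of Msh3. Their unadjusted p was under 0.05 for KM vs W, where 10.9% of all genes tested pass. Neither passed for KM vs “0”, where 3.65% do, or for “0” vs W, where 6.69% do. Their median log2-fold change for KM vs W was 0.56. Genes were higher in KM rats at that p in 5.58% of all cases for KM vs W and 2.37% for KM vs “0”, and lower in 5.33% and 1.29%. None of the 9 repair genes that could be followed, nor of the neighbours described further on, had a Benjamini-Hochberg adjusted p of edgeR under 0.05, which 0.0656% of all genes had for KM vs W, 0.0146% for KM vs “0” and 0.11% for “0” vs W.

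Rfc1 (ENSRNOG00000002855) encodes the large subunit of the clamp loader, which places the sliding clamp Pcna on DNA. Its level was 49.8, 49.2 and 53.6 CPM in KM rats 1 to 3, and 40.8, 39.7, 31.4 and 35.9 CPM in W rats 1 to 4. In “0” rats 1 to 4 it was 40.3, 50.4, 26.0 and 26.5 CPM. KM rats lay above all W rats, while the “0” values spread from below the W rats into the KM range. The log2-fold change for KM vs W was 0.36 (standard error 0.11, unadjusted p = 0.0131, adjusted p = 0.366, QLF test of edgeR). With all 11 rats in one fit the unadjusted p of this edgeR test was 0.113.

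Fan1 (ENSRNOG00000023985) encodes a nuclease that acts in the repair of DNA crosslinks. It stood at 15.5, 9.09 and 11.4 CPM in KM rats 1 to 3, and at 5.98, 6.47, 6.997 and 6.65 CPM in W rats 1 to 4. In “0” rats 1 to 4 the level was 8.31, 6.73, 4.49 and 11.2 CPM. Every KM rat was above every W rat, and “0” 4 lay within the KM range. The log2-fold change for KM vs W was 0.77 (standard error 0.21, unadjusted p = 0.00639, adjusted p = 0.328, QLF test of edgeR). In KM vs “0” it was 0.56 (standard error 0.27, unadjusted p = 0.0676, same test).

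Among 96 genes listed for other DNA repair pathways, 7 had an identifier. Of these, 6 passed an unadjusted p of 0.05 for KM vs W, with the higher level in KM rats for 5 and the lower for 1. Over all genes tested, 10.9% passed for KM vs W and 3.65% for KM vs “0”. As nearly all matched genes were listed by the study as differing, such counts were favoured in advance. In KM vs “0” 2 passed, both higher in KM rats, and for “0” vs W 2 passed, both higher in “0” rats, as were 3.26% of all genes. Chek1, the checkpoint kinase that halts the cell cycle at stalled replication forks, averaged 59.5 ± 10.9 CPM (SD, n = 3) among KM rats, 34.0 ± 5.48 CPM (SD, n = 4) among W rats and 44.6 ± 10.1 CPM (SD, n = 4) among “0” rats. Its log2-fold change was 0.70 for KM vs W (unadjusted p = 0.000798, adjusted p = 0.199, QLF test of edgeR) and 0.39 for “0” vs W (unadjusted p = 0.0242, same test). Atr, the kinase that activates Chek1, rose by 0.61 on the log2 scale for KM vs W (unadjusted p = 0.0197, same edgeR test). Without KM 1 the value for Atr was 0.40 (unadjusted p = 0.0908), and without W 1 it was 0.53 (unadjusted p = 0.0542, both QLF tests of edgeR).

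Fance, a member of the Fanconi anemia core complex, had a log2-fold change of 0.50 for KM vs W (unadjusted p = 0.00819, QLF test of edgeR) and of 0.66 for “0” vs W (unadjusted p = 0.0282, same test). In “0” rats its range ran from 15.6 to 45.2 CPM, and without “0” 4, the highest, the second value was 0.34. Rbbp8, which starts the resection of broken ends, had 9.25 to 10.6 CPM in KM, 4.81 to 7.81 CPM in W and 3.68 to 7.87 CPM in “0” rats. Its log2-fold change was 0.51 for KM vs W (unadjusted p = 0.0344) and 0.62 for KM vs “0” (unadjusted p = 0.0395, both QLF tests of edgeR). Tdg, a glycosylase of base excision repair, was higher in KM than in “0” rats by 0.49 on the log2 scale (unadjusted p = 0.0488, same edgeR test). Lig4, the ligase of end joining, had a log2-fold change of 0.78 for KM vs W. The gene that fell was Rad23b, a partner of the damage sensor Xpc, with a log2-fold change of -0.30 for KM vs W.

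When 1 rat at a time was left out, Rfc1, Fan1, Fance and Chek1 passed in all 7 fits for KM vs W, Atr in 5, Rad23b in 4, Rbbp8 in 3 and Lig4 in 2. For KM vs “0” Rbbp8 passed in 3 of 7 fits and Tdg in 1, and for “0” vs W Chek1 passed in 5 of 8 and Fance in 4. The number of other repair genes passing for KM vs W was 2 without KM 1 and 3 without W 1 or without W 3. In KM vs “0” it was 0 without KM 1, KM 2, “0” 3 or “0” 4, and for “0” vs W it was 0 without W 4 and 1 without “0” 2, “0” 4, W 1 or W 2.

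**Figure D3:**
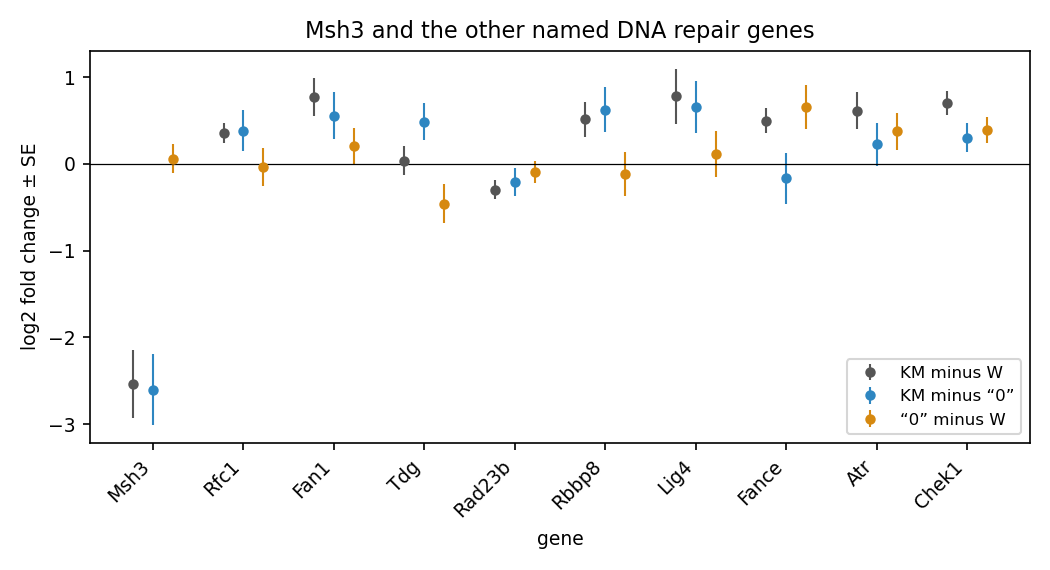
Log2-fold changes (vertical, with standard errors from the edgeR fit) of Msh3 and the 9 other DNA repair genes that have a symbol, for KM vs W (grey), KM vs “0” (blue) and “0” vs W (orange). Msh3 is at -2.54 and -2.60 in the KM comparisons, and the other 9 genes lie between -0.46 and 0.78.

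The neighbours of Msh3 on chromosome 2 were examined next, to see whether nearby genes shared its low level. Of the 20 nearest protein-coding genes, 10 on each side, only Ssbp2 and Zfyve16 had an identifier. Zfyve16 did not share the fall of Msh3 in either comparison. Ssbp2 was lower in KM rats in both, though by less than Msh3 and with an overlap with “0” rats. Zfyve16, 4 genes away on the side of the Msh3 start, encodes an endosomal FYVE domain protein. It was higher in KM rats, at 18.2, 16.4 and 19.8 CPM in KM rats 1 to 3 against 8.49, 13.2, 8.09 and 8.12 CPM in W rats 1 to 4. In “0” rats 1 to 4 it was at 9.54, 11.5, 7.09 and 14.6 CPM, so every KM rat lay above all other rats. The log2-fold change was 0.84 for KM vs W (standard error 0.19, unadjusted p = 0.00183) and 0.67 for KM vs “0” (standard error 0.19, unadjusted p = 0.00557, both QLF tests of edgeR).

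Ssbp2, 5 genes away on the Rasgrf2 side, encodes a single-stranded DNA binding protein that serves as a transcription cofactor. Its level was 30.9, 40.1 and 43.7 CPM in KM rats 1 to 3, and 57.4, 56.3, 57.3 and 54.9 CPM in W rats 1 to 4. The “0” rats 1 to 4 had 43.3, 52.1, 55.2 and 31.8 CPM. KM rats were below all W rats but overlapped with “0” rats. The log2-fold change was -0.67 for KM vs W (standard error 0.13, unadjusted p = 0.000696, adjusted p = 0.199, QLF test of edgeR) and -0.41 for KM vs “0” (unadjusted p = 0.162, same test).

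Extended to the nearest genes with an identifier that were tested, 8 on the Rasgrf2 side and 10 on the side of the Msh3 start, the stretch reached from 42 protein-coding genes before Msh3 to 65 after it. Of these 18 genes, 11 passed an unadjusted p of 0.05 for KM vs W, 5 lower and 6 higher in KM rats, and 9 passed for KM vs “0”, 1 lower and 8 higher. Over all genes tested, 10.9% passed for KM vs W and 3.65% for KM vs “0”. Such counts were favoured in advance, because the genes with a symbol are those listed as differing. In “0” vs W, 2 genes passed, the transcription factor gene Mef2c and Rhobtb3, both lower in “0” rats, as were 3.43% of all genes. The median log2-fold change of the 18 genes was 0.32 for KM vs W, 0.42 for KM vs “0” and -0.26 for “0” vs W.

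In KM vs W the genes lower in KM rats, besides Ssbp2, were Glrx, Mef2c, Pde8b and Nsa2, and those higher, besides Zfyve16, were Spata9, Tmem161b, Lhfpl2, Ap3b1 and Tnpo1. In KM vs “0” Wdr41 was lower in KM rats, and Rhobtb3, Slf1, Hapln1, Iqgap2, Fcho2, Tnpo1 and Bdp1 were higher along with Zfyve16. Zfyve16 and Tnpo1, the latter an importin, were the genes of this stretch that passed in both comparisons, and both were higher in KM rats. No log2-fold change of these 18 genes reached the size found for Msh3. The largest was 1.42 for Iqgap2 for KM vs “0”. This does not hold for genes without a symbol. In the order of the count files, ENSRNOG00000018045 stands between Pde8b and Iqgap2. Its log2-fold change for KM vs W was -4.13, a larger fall than that of Msh3, at a low mean level (log2 CPM 0.596). Its position was not looked up in the gene table. Leaving out 1 rat moved the number of the 18 genes that passed to between 4 and 9 for KM vs W. It was 4 without KM 1, 6 without W 1 or W 3, and 7 without KM 2, KM 3 or W 4. In KM vs “0” the number moved to between 3 and 7, with 3 without KM 1 or “0” 3 and 5 without KM 3 or “0” 1. In “0” vs W it was 0 without “0” 1 or W 2, 1 without “0” 3 and 4 without W 4.

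**Figure D4:**
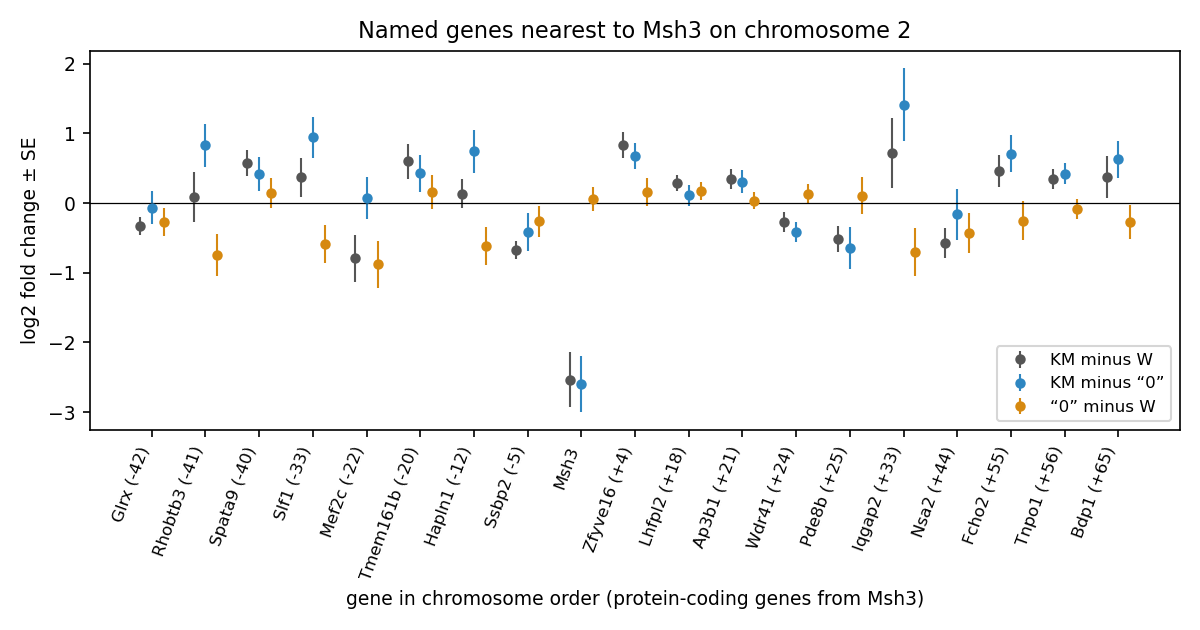
Log2-fold changes (vertical, with standard errors) of Msh3 and the 18 nearest genes with a symbol in chromosome order (horizontal, with the number of protein-coding genes from Msh3 in brackets), for KM vs W (grey), KM vs “0” (blue) and “0” vs W (orange). The fall of Msh3 to -2.54 and -2.60 stands between the higher values of Zfyve16 and the moderately lower values of Ssbp2. Only genes with a symbol are shown, nearly all of them listed by the study as differing. Genes without a symbol that lie between them are left out, among them, by count-file order, ENSRNOG00000018045 (-4.13 for KM vs W).

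The levels of some other genes correlated with that of Msh3 over the rats. Likeness was measured as Pearson's r of log2 CPM over the 11 rats, which share strain differences and library composition with Msh3, so r is given as a description. Over 13693 genes, 1% had an r above 0.682 and 1% below -0.710. The most alike were Gli1 (r = 0.906), Dyrk1b (0.890), Tmem254 (0.887), LOC691921 (0.859) and Rpl17 (0.855), which were also the first 5 among all genes. Once strain means were subtracted, r was 0.750 for Gli1, 0.657 for Rpl17 and 0.178 to 0.305 for the other 3. Spearman's correlation, which uses ranks only, was 0.591 for Gli1, 0.718 for Dyrk1b, 0.400 for Tmem254, 0.664 for LOC691921 and 0.891 for Rpl17. Dyrk1b had log2-fold changes of only -0.26 for KM vs W and -0.31 for KM vs “0”. With 1 rat left out it passed in 0 of 7 fits in each comparison.

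Gli1, the transcription factor that ends the Hedgehog pathway, had 6.41 to 10.1 CPM in KM, 11.2 to 15.5 CPM in W and 10.3 to 14.1 CPM in “0” rats. KM rats were below all others, and KM 3 was lowest for Gli1 as for Msh3. Its log2-fold change was -0.78 for KM vs W and -0.60 for KM vs “0”, and the latter was -0.38 without KM 3 (unadjusted p = 0.0959, QLF test of edgeR). Tmem254, a transmembrane protein gene, had 18.3 to 19.8 CPM in KM and 24.7 to 33.1 CPM in the other rats. Rpl17, a ribosomal protein gene, had means of 115, 231 and 293 CPM in KM, W and “0” rats. Genes of this class have near-identical processed copies, so its counts are uncertain.

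The most opposite were RGD1562420 (r = -0.928), Gfm1 (-0.892), RGD1359508 (-0.890), Bicd2 (-0.884) and Zbtb1 (-0.882). RGD1562420 had 17.5 to 31.7 CPM in KM rats and 0.367 to 1.499 CPM in all other rats, the only gene of these 10 whose fold change exceeded that of Msh3. Within strains its r with Msh3 was -0.119. Gfm1, an elongation factor of mitochondrial translation, had 41.5 to 49.2 CPM in KM, 29.0 to 32.8 CPM in W and 24.9 to 33.9 CPM in “0” rats. Bicd2, an adaptor of the dynein motor, and Zbtb1, a zinc finger transcription factor gene, had within-strain values of -0.494 and -0.594. For RGD1359508 the within-strain value was -0.401. For Gfm1 it was 0.101, opposite in sign to its r over all rats.

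**Figure D5:**
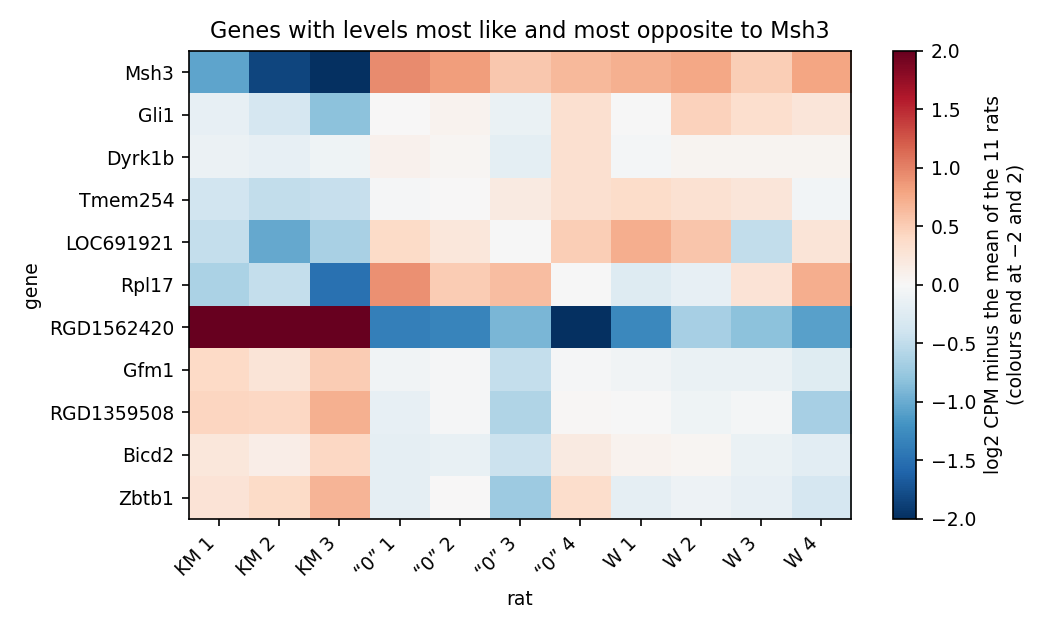
Level of Msh3, of the 5 named genes most alike and of the 5 most opposite to it (rows) in each of the 11 rats (columns), as log2 CPM minus the gene's mean over the rats; red is above and blue below that mean. The 3 KM columns are blue for Msh3 and the first 5 genes and red for the last 5, with the deepest colours in Msh3 and RGD1562420.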

How the data were processed

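According to the methods, the authors trimmed 75-bp single-end reads (Trimmomatic), mapped them to Rnor_6.0 (STAR) and deposited for each rat the counts of reads per Ensembl gene (HTSeq), without normalization. Tool versions, annotation release and strand setting are not given in the sources used here. Strain and number came from sample titles. CPM is the count divided by the reads assigned to genes. Each pair of strains was fitted on its own rats with R 4.3.3, edgeR 4.0.16 (TMM, quasi-likelihood F-test in its original form) keeping genes whose CPM averaged 1 or more, and DESeq2 1.42.0 was an alternative. A gene was called where its unadjusted p was under 0.05, as in the study, with Benjamini-Hochberg values over all genes tested. Log2 CPM used a prior count of 2. The p-values measure the spread between single rats. Symbols came from a supplementary table of the study (identifier and symbol only), and its fold changes and p-values were not used. Gene order and promoter sequence are RefSeq's (GRCr8).

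Msh3 and the gene lists were chosen with earlier results of these data known. Genes were named by a rule that took Msh3, the MutS and MutL genes, mismatch repair genes with a p under 0.05, the 3 other repair genes with the smallest p in each comparison, Mt-co2, Atp5f1b, Sod1, Sod2 and Sod3, neighbours of Msh3 that passed, and the 5 named genes most and least like it. Htra4, Sspo and Acsm5 fall outside it, and repair genes it did not reach were named to make the list complete. The procedure was tested on simulated data. Intervals and the floor of 3 counts cover counting error only. Marker lists for microglia, pineal gland, cerebellum and dividing cells had no matched gene, and the single matched genes for endothelium (Flt1, 80.0 to 129 CPM) and erythrocytes (Alas2, 21.0 to 134 CPM) were not used further. Some genes and a sequence of these lists are not reported here.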

Additional observations from a re-analysis of the deposited data

Results flagged for a closer look

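The values of Msh3 and the 37 other genes followed were searched, in the 4 W and the 4 “0” rats, for a rat whose gap to its nearest neighbour exceeded Dixon's 95% limit as a share of the range. Of 76 sets of 4 values 8 were found, or 10.5%, and none concerned Msh3. The limit is set so that about 1 in 20 independent sets of normally distributed values exceed it. These sets are the same W and “0” rats read over many genes, so their share cannot be set against that rate.

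Among W rats, W 2 was far above the others for Lig4 (17.1 CPM, the next 9.38 CPM), for Mef2c (106 CPM, the next 50.5 CPM) and for Zfyve16 (13.2 CPM, the next 8.49 CPM). W 1 was below the others for Dyrk1b (26.2 CPM, the next 27.8 CPM), and W 4 for RGD1359508 (1.64 CPM, the next 2.45 CPM). Among “0” rats, “0” 2 was above the others for Rad23b (210.2 CPM, the next 179 CPM), “0” 4 for Iqgap2 (4.48 CPM, the next 2.09 CPM), and “0” 3 was below them for Gfm1 (24.9 CPM, the next 32.9 CPM). Without W 2 the fold change of KM vs W on the log2 scale was 1.05 for Lig4, -0.40 for Mef2c and 1.01 for Zfyve16.

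These levels are CPM without TMM scaling. With TMM-scaled CPM, an alternative chosen after the data were seen, 6 gaps passed the limit, and 3 of the 8 were found again in the same rat, those of W 2 for Lig4, Mef2c and Zfyve16. The gaps for Rad23b, Iqgap2, Dyrk1b, Gfm1 and RGD1359508 no longer passed, and for Rad23b, Dyrk1b and Gfm1 the widest gap was at another rat. The gaps found with TMM scaling alone were those of W 4 for Nsa2, W 1 for Gli1 and “0” 4 for Bicd2.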

How the results depend on the processing

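The log2-fold change of Msh3 kept its direction under all alternatives for KM vs W and KM vs “0”. Leaving out each rat gave -3.08 to -2.14 for KM vs W and -3.14 to -2.20 for KM vs “0”, the extremes being without KM 1 and without KM 3, and from -0.000387 to 0.17 for “0” vs W. Other scalings, filters, DESeq2 and both prior counts gave -2.67 to -2.54, -2.73 to -2.60 and 0.06 to 0.07.

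Counts of called genes were less stable. With an adjusted p under 0.05 every list had 0 genes in every comparison. With all 11 rats in one fit 1 mismatch repair gene passed for KM vs W and 1 for KM vs “0”. Other repair genes passing for KM vs “0” numbered 1 with DESeq2 size factors. The 25 nearest genes on each side (8 before Msh3, where no more were named) reached up to 349 protein-coding genes away. Of these, 25 passed for KM vs W and 4 for “0” vs W. Over all genes tested, 10.9% passed for KM vs W and 6.69% for “0” vs W. As nearly all genes with a symbol were listed as differing, these counts too were favoured in advance. Leaving out each rat gave 2 mismatch repair genes throughout for KM vs W, 0 to 1 for KM vs “0” and 0 for “0” vs W. Other repair genes then numbered 2 to 6, 0 to 3 and 0 to 3, and neighbours 4 to 9, 3 to 7 and 0 to 4.

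Rats of different strains share only a number. Deviations of same-numbered rats correlated at -0.183 to 0.190 for KM vs W, 0.0585 to 0.236 for KM vs “0” and -0.579 to 0.513 for “0” vs W, and in no comparison did every rat correlate best with its own number. With the replicate number as a block, the log2-fold change of Msh3 was -2.57, -2.80 and 0.06. Other repair genes numbered 3, 1 and 1, neighbours 4 for KM vs W, and mismatch repair genes 1 for KM vs “0”. Of the 52 calls of named genes, 29 passed with this block, 46 with all 11 rats in one fit and 47 with DESeq2. None of 680 values under alternatives changed direction. The number of all genes called moved by over 1.5 times for KM vs W without W 1 (954 against 1497), for KM vs “0” with the replicate block (781 against 500) and when single rats were left out of KM vs “0” (280 to 921). Msh3 rests on 13 to 35 reads per KM rat, which limits the precision of its KM level.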
